A study of Homo sapiens with 9 samples.

Results

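The early response of HepG2 cells to the PPARα agonist GW7647 was measured as the difference between 3 arrays of cells treated with 100 nM GW7647 for 6 h and 3 arrays of cells given the vehicle, DMSO. These are 6 of the 9 arrays of the series, and they were chosen by their titles. HepG2 is an established human line from a liver tumour, a hepatoma, grown here in serum-containing medium without phenol red and split on the day before treatment. The other 3 arrays came from the same treatment for 24 h, and the 1 vehicle group serves both times. The time from vehicle addition to harvest was not found in the labels, so exposure to GW7647 and time in culture cannot be told apart. Replicates carry numbers, but no label calls them separate cultures, so that p-values measure only how these samples differ among themselves, and that spread may be technical. All 19775 genes with a probe set assigned to 1 gene symbol were compared, each through the probe set with the highest mean signal over the 9 arrays.

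PPARα is a nuclear receptor that is bound and activated by fatty acids and by drugs such as the fibrates. It binds DNA as a pair with the retinoid X receptor RXR, and in liver it is best known for raising the genes of fatty acid uptake, mitochondrial and peroxisomal oxidation, ketone body formation and lipid droplet coating. Activated receptors recruit coactivators, and PPARα is also known to lower genes of the acute phase response without binding such a site itself. In bulk RNA, fewer cells of a type and less RNA per cell cannot be told apart.

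Signals are log2 values of the arrays, and a change is the mean of the 3 arrays at 6 h minus the mean of the 3 vehicle arrays, given as log2 ± SE. A gene rose or fell if its adjusted p (limma, Benjamini-Hochberg over all 19775 genes) was under 0.05. A call is said to have held if it was also made in each of the 9 fits that left out 1 array. Values without shared probes leave out the probe sets whose names mark probes that match several transcripts, so that a gene is read through another probe set or not at all, and fewer genes are tested. By this test 701 genes passed, which is 3.54% of the 19775. Of these, 324 rose (1.64%) and 377 fell (1.91%), against 419 and 328 when the arrays were quantile normalized again and 255 and 416 when each array was centred on its median. The call held for 115 of the genes that rose and 100 of those that fell. Fewer genes passed in fits of 8 arrays: 261 with 6 h replicate 2 left out, 282 with 6 h replicate 1 and 390 with 6 h replicate 3 left out, and 436 with vehicle replicate 1 left out. With vehicle replicate 3 left out, 221 genes fell. The arrays of the groups did not overlap for 20.8% of all genes, and for all 701 that passed. At an unadjusted p under 0.05 there were 3227 genes. Most changes were small: the median log2 change was 0.36 among genes that rose and -0.34 among genes that fell, and 0.00 over all genes. A change of at least 2-fold was seen in 21 genes that rose and 4 that fell, and of at least 4-fold in 6 that rose and 0 that fell. With the genes split into 4 equal bins by mean signal, the share that passed was 0.283%, 1.21%, 6.33% and 6.35% from the dimmest bin to the brightest.

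**Figure D1:**
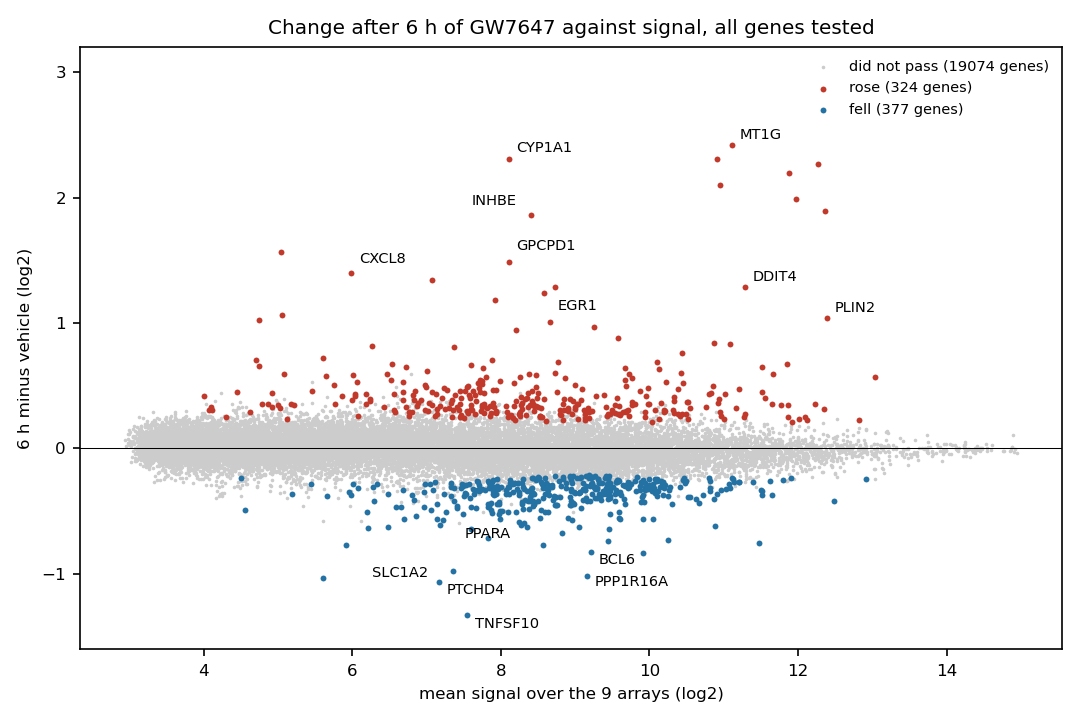
Each point is 1 of the 19775 genes. The horizontal axis is the mean signal over the 9 arrays (log2) and the vertical axis the change at 6 h against vehicle (log2). Red points rose and blue points fell at an adjusted p under 0.05. The rises reach further than the falls: MT1G is highest at 2.42 and TNFSF10 lowest at -1.33.

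The cells carried their label. All 14 markers of HepG2 hepatoma cells, albumin and α-fetoprotein among them, had signals between 9.69 and 14.95, with a median of 13.90, and 0 of the 14 passed at 6 h in the limma fit (2 at an unadjusted p under 0.05). Their summed level was between 17.64 and 17.65 in vehicle and between 17.61 and 17.63 at 6 h. Of the 22 markers of endothelial, immune, stellate, biliary and muscle cells, 0 passed (1 at an unadjusted p under 0.05). Their signals lay between 3.51 and 11.93, and the highest was LYZ, an immune marker. The biliary markers EPCAM and KRT19, at 11.36 and 10.70, also lay within the range of the hepatoma markers. The summed immune marker level was between 12.01 and 12.14 in the vehicle arrays and between 11.93 and 11.95 at 6 h. This sum is almost all LYZ, as PTPRC, CD163 and CD3E had signals of 4.26, 4.78 and 5.73. LYZ changed by -0.14 (adjusted p = 0.438 in the limma fit). The part of this summed level in the results was not tested. The summed endothelial level was between 8.67 and 8.89 in vehicle and between 8.57 and 8.74 at 6 h, and those of stellate, biliary and muscle markers also overlapped between the groups.

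Upstream sequences of 5 genes that rose are shown because each holds matches to a motif known for its family. They were picked from 9 promoters searched, and the other 4 are described after them. They are the 250 bases before the start of each gene in RefSeq's GRCh38.p14 annotation, 5′ to 3′ in the direction of the gene. MT2A (chr16:56608334-56608583, plus strand) and MT1X (chr16:56682220-56682469, plus strand) are metallothionein genes, and the capitals mark matches on either strand to TGCNCNC, the core of the metal response element.
MT2A: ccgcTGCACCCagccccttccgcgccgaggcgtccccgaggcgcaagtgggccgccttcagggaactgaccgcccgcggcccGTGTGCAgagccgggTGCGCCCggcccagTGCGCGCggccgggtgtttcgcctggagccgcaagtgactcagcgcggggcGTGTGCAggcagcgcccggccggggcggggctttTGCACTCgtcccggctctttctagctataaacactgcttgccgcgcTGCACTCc
MT1X: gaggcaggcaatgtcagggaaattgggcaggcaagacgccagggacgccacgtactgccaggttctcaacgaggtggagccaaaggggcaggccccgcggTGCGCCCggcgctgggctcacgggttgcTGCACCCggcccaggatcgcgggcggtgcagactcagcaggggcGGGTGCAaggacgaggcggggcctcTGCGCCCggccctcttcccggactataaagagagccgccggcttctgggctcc
For CYP1A1 (chr15:74725529-74725778, minus strand), the capitals mark GCGTG, the core bound by the aryl hydrocarbon receptor pair.
CYP1A1: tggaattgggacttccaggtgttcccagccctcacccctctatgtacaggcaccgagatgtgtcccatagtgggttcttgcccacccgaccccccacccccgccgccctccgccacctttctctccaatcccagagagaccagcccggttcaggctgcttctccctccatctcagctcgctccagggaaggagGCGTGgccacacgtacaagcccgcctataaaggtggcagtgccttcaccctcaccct
For EGR1 (chr5:138465229-138465478, plus strand), the capitals mark CArG boxes, the sites bound by serum response factor.
EGR1: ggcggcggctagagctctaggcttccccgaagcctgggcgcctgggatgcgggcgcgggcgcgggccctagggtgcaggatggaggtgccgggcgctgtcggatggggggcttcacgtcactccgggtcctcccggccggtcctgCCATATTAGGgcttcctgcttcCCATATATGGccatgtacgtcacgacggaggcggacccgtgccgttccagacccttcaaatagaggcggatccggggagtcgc
For CXCL8 (chr4:73740319-73740568, plus strand), the capitals mark TGACTCA, the AP-1 site, and GGANTTTCC, a form of the NF-κB site.
CXCL8: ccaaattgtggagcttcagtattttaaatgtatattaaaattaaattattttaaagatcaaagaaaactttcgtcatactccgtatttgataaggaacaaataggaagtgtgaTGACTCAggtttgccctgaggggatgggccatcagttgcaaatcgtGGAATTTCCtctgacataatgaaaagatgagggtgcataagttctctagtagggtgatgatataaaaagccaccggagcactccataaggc

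MT2A held 7 matches to the metal core and MT1X 4. Among 27305 promoters of the same length, 48.4% held at least 1 match and 5.74% held at least 3. CYP1A1 held 1 match to GCGTG, which is found in 31.9% of all promoters. EGR1 held 2 CArG boxes, found in 1.14% of promoters. CXCL8 held 1 AP-1 site (4.16% of promoters) and 1 NF-κB match (1.47%). Of the promoters not printed, PLIN2 held 0 PPAR elements, HMGCS1 0 sterol cores and TNFSF10, which fell, 0 forkhead sites (GTAAACA). TNFSF10 held 3 metal cores and DDIT4 1. Matches are descriptions of letters and not of bound sites, and motifs may overlap, as a GCGTG overlaps a metal core in MT2A. Of the genes tested, 15382 had a promoter in the table, among them 266 that rose and 301 that fell. A CArG box was found in 3.38% of promoters of genes that rose, 0.664% of those that fell and 1.14% of those tested. The NF-κB form was found in 3.76%, 0.664% and 1.52% of the same sets, and the sterol core TCACNCCAC in 2.26%, 0.997% and 0.832%. The other shares lay closer together: the metal core was found in 58.6%, 52.5% and 53.7%, GCGTG in 45.1%, 41.9% and 39.3%, the AP-1 site in 2.63%, 2.66% and 3.18%, the forkhead site in 2.26%, 2.99% and 2.25%, and the cyclic AMP element TGACGTCA in 3.01%, 2.99% and 2.38%. None of these shares was tested. The PPAR element, searched as 2 copies of AGGTCA 1 base apart on either strand, was found in 0 promoters of genes that rose and in 0.0183% of all promoters.

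The metallothioneins, small cysteine-rich proteins that bind zinc and copper, gave the largest rises. MT1G had signals of 9.58, 9.69 and 9.79 in the vehicle arrays, 12.23, 12.11 and 11.98 at 6 h and 11.61, 11.55 and 11.50 at 24 h. Its arrays at 6 h were all more than 2 log2 units above the vehicle arrays and above those at 24 h, and the rise was 5.35-fold (95% confidence interval 4.76 to 6.01), adjusted p = 5.89e-08. MT2A, among the most abundant family members in liver, had signals of 11.11, 11.43 and 11.35 in vehicle and 13.25, 13.21 and 13.10 at 6 h, and 12.66, 12.60 and 12.60 at 24 h. The groups were again separate, with a rise at 6 h of 3.71-fold (95% confidence interval 3.28 to 4.20). MT1F, MT1E, MT1X, MT1H and MT1HL1 rose by 4.96-fold, 4.82-fold, 4.58-fold, 4.29-fold and 3.96-fold. MT1M, at a lower signal, had 4.16, 4.44 and 3.97 in vehicle and 5.92, 5.71 and 5.64 at 6 h, a rise of 2.96-fold (95% confidence interval 2.51 to 3.50). All 8 held in every fit. The family is nearly identical in sequence, and 7 of the 8 were read through probe sets whose probes match several transcripts, so their separate changes are uncertain. MT1M has a probe set of its own. MT1G has a second, dimmer probe set without shared probes, on which the change was 0.14 (adjusted p = 0.441).

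Other zinc genes changed less. SLC30A1, the zinc exporter of the plasma membrane, rose from 10.70, 10.58 and 10.79 to 11.14, 11.08 and 11.14, a log2 change of 0.43 ± 0.06. With the mean of its probe sets the change was 0.21 (adjusted p = 0.0553). SLC39A10 and SLC39A14, importers of zinc, fell by log2 changes of -0.59 ± 0.08 and -0.42 ± 0.06. MTF1, the zinc sensor that switches on metallothionein genes, had a change of 0.12 ± 0.05 (adjusted p = 0.290). Of the 35 measured members of the metallothionein and zinc list, 9 rose (9 held) and 3 fell (2 held), and the list's median log2 change was 0.06. That is 25.7% and 8.57%, against 1.64% and 1.91% of all genes. Counts moved to 2 that rose with shared probes left out. MT1E, MT1F, MT1H, MT1HL1, MT1X and MT2A have no such probe set and were not read there.

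CYP1A1, a cytochrome P450 that oxidises aromatic hydrocarbons and is the best known target of the aryl hydrocarbon receptor, rose by 4.96-fold (95% confidence interval 4.42 to 5.58), adjusted p = 5.89e-08. Its signals were 7.51, 7.53 and 7.43 in vehicle, 9.79, 9.95 and 9.67 at 6 h and 7.12, 6.98 and 6.97 at 24 h. The arrays at 24 h lay below the vehicle arrays. It was the only one of 18 measured members of the aryl hydrocarbon receptor list that passed. CYP1B1 changed by 0.24 ± 0.12 on the log2 scale (adjusted p = 0.347) and TIPARP, a poly-ADP-ribose polymerase induced by the receptor, 0.17 ± 0.06 (adjusted p = 0.179). The receptor AHR had a log2 change of 0.10 ± 0.08 and its repressor AHRR 0.04 ± 0.09, with adjusted p = 0.612 and 0.889. CYP24A1, the enzyme that breaks down active vitamin D, rose from 7.37, 7.30 and 7.43 to 8.53, 8.74 and 8.38, or 2.27-fold (95% confidence interval 2.00 to 2.58). Of the 61 measured members of the cytochrome P450, conjugation and drug transport list, 1 rose (1 held) and 4 fell (2 held), and the list's median log2 change was 0.02 (0.00 with median centring). The share that rose, 1.64%, equals that of all genes, and 6.56% fell, against 1.91%. FMO5, a flavin monooxygenase, and SULT2A1, which sulfates bile acids and steroids, fell by log2 changes of -0.55 ± 0.08 and -0.40 ± 0.06. With vehicle replicate 3 or any 1 6 h replicate or 24 h replicate 1 left out, 2 fell.

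**Figure D2:**
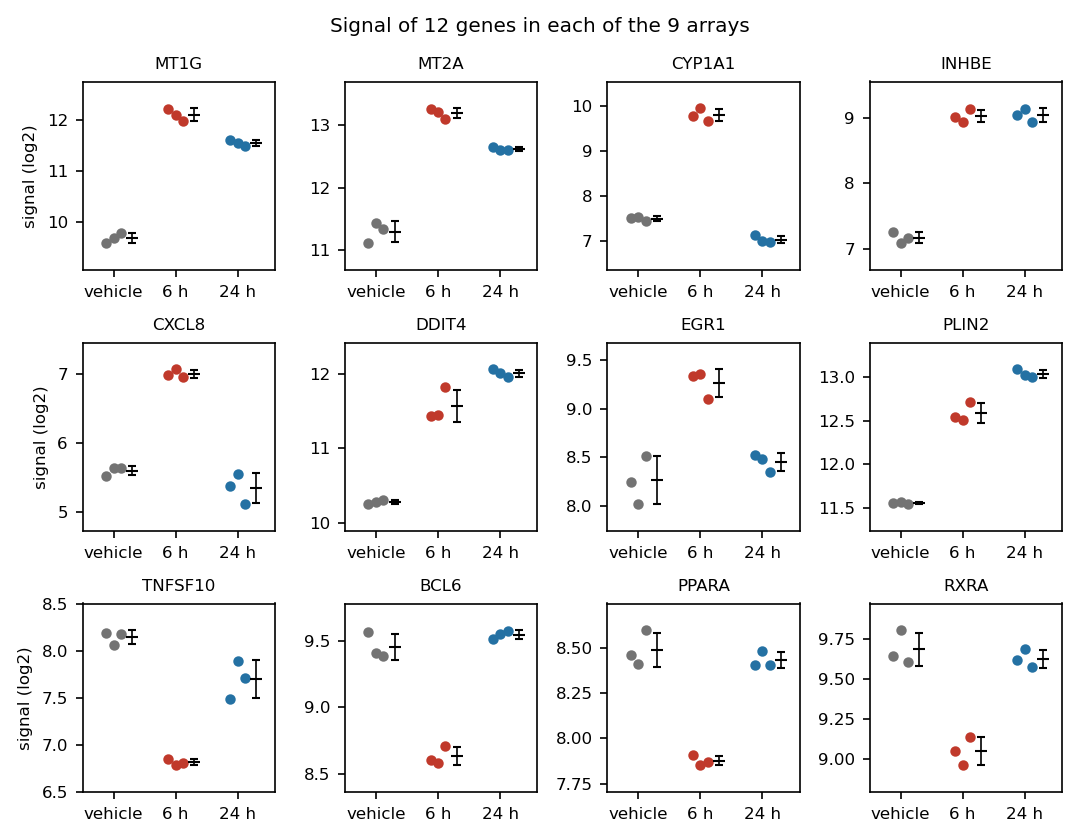
Log2 signals of 12 genes in each of the 9 arrays, with 3 points per group and the mean ± SD at their right. The vertical scale differs between panels. In every panel the 3 arrays at 6 h (red) lie apart from the 3 vehicle arrays (grey), as they do for all 701 genes that passed. CYP1A1 and CXCL8 at 24 h (blue) are at or below the vehicle level, and INHBE, DDIT4 and PLIN2 are as high as at 6 h or higher.

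Of the textbook targets of PPARα, 22.2% rose, against 1.64% of all genes. This list was made with earlier results of these data known, so the share is a description. Of the 27 measured members of the PPARα target list, 6 rose (3 held) and 0 fell (2 at an unadjusted p under 0.05), and the list's median log2 change was 0.09. Only 3 rose with 6 h replicate 1 left out. PLIN2, the protein that coats lipid droplets, had signals of 11.55, 11.57 and 11.54 in vehicle and 12.54, 12.51 and 12.72 at 6 h, a rise of 2.05-fold (95% confidence interval 1.86 to 2.26), and 13.09, 13.02 and 13.01 at 24 h. A second, dim probe set of PLIN2 changed by -0.08. TRIB3, a pseudokinase that restrains AKT, rose by 1.59-fold (log2 0.67 ± 0.05). SLC25A20, the carnitine-acylcarnitine carrier of the inner mitochondrial membrane, rose by 1.26-fold, from 8.18, 8.31 and 8.22 to 8.54, 8.54 and 8.62. ACSL1, which activates long-chain fatty acids, passed with a log2 change of 0.31 ± 0.06 but not without 6 h replicate 1 or 2, nor without shared probes, where it was 0.16 (adjusted p = 0.371).

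Several of the best known targets did not pass. CPT1A, the gate of fatty acid entry into mitochondria, had signals of 9.83, 9.75 and 10.15 in vehicle and 10.13, 10.09 and 10.15 at 6 h. The change was 0.22 ± 0.09 with an adjusted p of 0.250, and it passed with the mean of its 4 probe sets (0.27, adjusted p = 0.0309) and without vehicle replicate 3. At 24 h its log2 change against the same vehicle arrays was 0.77. PDK4, a brake on pyruvate oxidation, had a log2 change of 0.05 ± 0.13, and ANGPTL4, an inhibitor of lipoprotein lipase, -0.04 ± 0.10. The fatty acid binding protein FABP1 had a log2 change of -0.05 ± 0.06, the transcription factor CREB3L3 0.26 ± 0.13 and the hormone FGF21 0.06 ± 0.09.

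In fatty acid oxidation as a whole, of the 32 measured members of the fatty acid oxidation list, 2 rose (2 held) and 0 fell (2 at an unadjusted p under 0.05), and the list's median log2 change was 0.01 (-0.01 with median centring). Rises made up 6.25%, against 1.64% of all genes. The 2 that rose were SLC25A20 and ACOX3, a peroxisomal acyl-CoA oxidase of branched-chain fatty acids, with a log2 change of 0.38 ± 0.06. An intensity trend and robust prior gave 4 rises, as did the test among genes above the median signal. Of the 31 measured members of the lipid droplet and triglyceride list, 5 rose (1 held) and 1 fell (0 held), and the list's median log2 change was -0.05. As shares, 16.1% rose and 3.23% fell, against 1.64% and 1.91% of all genes. PLIN2 was the rise that held. AQP3, a channel for water and glycerol, and GPAT3, which makes lysophosphatidic acid for triglyceride, passed with log2 changes of 0.54 ± 0.10 and 0.49 ± 0.09. AQP3 was lost with vehicle replicate 1 or 6 h replicate 1 or 2 left out, and GPAT3 with 6 h replicate 1 or 3 left out. In other fits, 1 rose with 6 h replicate 1 left out, 2 rose with 6 h replicate 3 left out, 3 rose with vehicle replicate 1 or 6 h replicate 2 left out and 3 rose with shared probes left out. Of the 21 measured members of the fatty acid synthesis list, 0 rose and 0 fell (1 higher and 1 lower at an unadjusted p under 0.05), and the list's median log2 change was 0.00 (0.02 with quantile normalization). SREBF1, their main activator, had a change of -0.07 ± 0.07. Of 33 measured apolipoprotein and lipoprotein genes, 1 rose: LIPG, endothelial lipase, with a log2 change of 0.59 ± 0.09. That is 3.03%, against 1.64% of all genes.

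Sterol synthesis genes gave 7 rises, 28% of those measured, against 1.64% of all genes. Of the 25 measured members of the sterol list, 7 rose (4 held) and 1 fell (0 held), and the list's median log2 change was 0.08. Counts moved to 4 that rose with 6 h replicate 1 or 2 left out and 4 that rose with shared probes left out. HMGCS1, the cytosolic synthase at the entrance of the mevalonate pathway, had signals of 8.64, 8.49 and 8.68 in vehicle, 9.35, 9.32 and 9.19 at 6 h and 8.35, 8.47 and 8.44 at 24 h, and rose by 1.61-fold (95% confidence interval 1.45 to 1.79). The groups did not overlap. IDI1 and MSMO1, enzymes further along the pathway, rose by log2 changes of 0.48 ± 0.06 and 0.40 ± 0.07, and STARD4, a carrier of cholesterol between membranes, by 0.39 ± 0.05. On a probe set without shared probes IDI1 changed by -0.038. SREBF2, the main activator of the pathway, had a log2 change of 0.04 ± 0.07, and INSIG1, its fast-responding brake, 0.11 ± 0.09 (adjusted p = 0.859 and 0.631).

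The receptor itself and its partner RXRA fell. PPARA had signals of 8.46, 8.41 and 8.60 in vehicle, 7.91, 7.85 and 7.87 at 6 h and 8.41, 8.48 and 8.41 at 24 h. The arrays at 6 h lay below all others, and the fall was 1.53-fold (95% confidence interval 1.39 to 1.68), adjusted p = 3.31e-04. All 9 probe sets of the gene had a change below 0, from -0.74 to -0.01. With their mean the log2 change was -0.41 (adjusted p = 0.00139). RXRA had 9.65, 9.81 and 9.61 in vehicle and 9.05, 8.96 and 9.13 at 6 h, a fall of 1.56-fold (95% confidence interval 1.40 to 1.74), and 9.62, 9.69 and 9.57 at 24 h. Both probe sets of RXRA are named as matching several transcripts, and the second, with a mean signal of 8.89, changed by -0.14 (adjusted p = 0.449). With the mean of both the log2 change was -0.39 (adjusted p = 0.00577). PPARGC1A, the coactivator that ties these receptors to mitochondrial and gluconeogenic genes, had 6.40, 6.18 and 6.14 in vehicle, 5.75, 5.58 and 5.48 at 6 h and 6.74, 6.93 and 6.72 at 24 h. It was 1.55-fold (95% confidence interval 1.35 to 1.79) lower at 6 h, while the arrays at 24 h lay above the vehicle arrays. A second, dim probe set changed by 0.03. All 3 falls held. PPARD and PPARG, the other PPAR receptors, had log2 changes of 0.01 ± 0.07 and -0.04 ± 0.07 (adjusted p = 0.981 and 0.849). LPIN1, a phosphatidate phosphatase that also coactivates PPARα, passed with a log2 change of 0.35 ± 0.06 but not without 6 h replicate 1 or 3. The other 14 of 18 measured receptors and coregulators did not pass. Of the 18, 16.7% fell and 5.56% rose, against 1.91% and 1.64% of all genes.

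Transcription factors on a list of hepatocyte factors gave more falls than rises. Of those that fell, DBP and NFIL3 are also on the circadian list. Of the 37 measured members of the hepatocyte factor list, 1 rose (0 held) and 8 fell (4 held), and the list's median log2 change was -0.16. The share that fell was 21.6%, against 1.91% of all genes, and is a description, as the list was made with earlier results of these data known. HNF4A was not analysed here. With shared probes left out, 0 rose, and 4 fell with 6 h replicate 2 left out, 5 fell with 6 h replicate 1 left out and 5 fell with shared probes left out. More fell, 14, with an intensity trend and robust prior, and 13 among genes above the median signal. TOX3, a high mobility group protein, had signals of 10.33, 10.05 and 10.22 in vehicle and 9.33, 9.34 and 9.44 at 6 h, a fall of 1.78-fold (95% confidence interval 1.52 to 2.09). ONECUT2 fell from 8.97, 8.77 and 9.09 to 8.49, 8.53 and 8.44, a log2 change of -0.45 ± 0.08. GATA4, a factor of early liver development, fell from 8.76, 8.95 and 8.94 to 8.50, 8.38 and 8.54 (-0.41 ± 0.07). The second of its 5 probe sets changed by -0.35 (adjusted p = 0.129). DBP, a clock-driven factor of hepatocyte genes, changed by -0.47 ± 0.06, and by -0.10 (adjusted p = 0.518) without shared probes. FOXA2, a pioneer factor of liver, passed with a log2 change of -0.34 ± 0.06 but not without 6 h replicate 2 nor with the mean of its probe sets, and NFIL3, a repressor that opposes DBP, with a log2 change of -0.39 ± 0.07 but not without 6 h replicate 1 or 2. The median of the list at 24 h was 0.10.

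**Figure D3:**
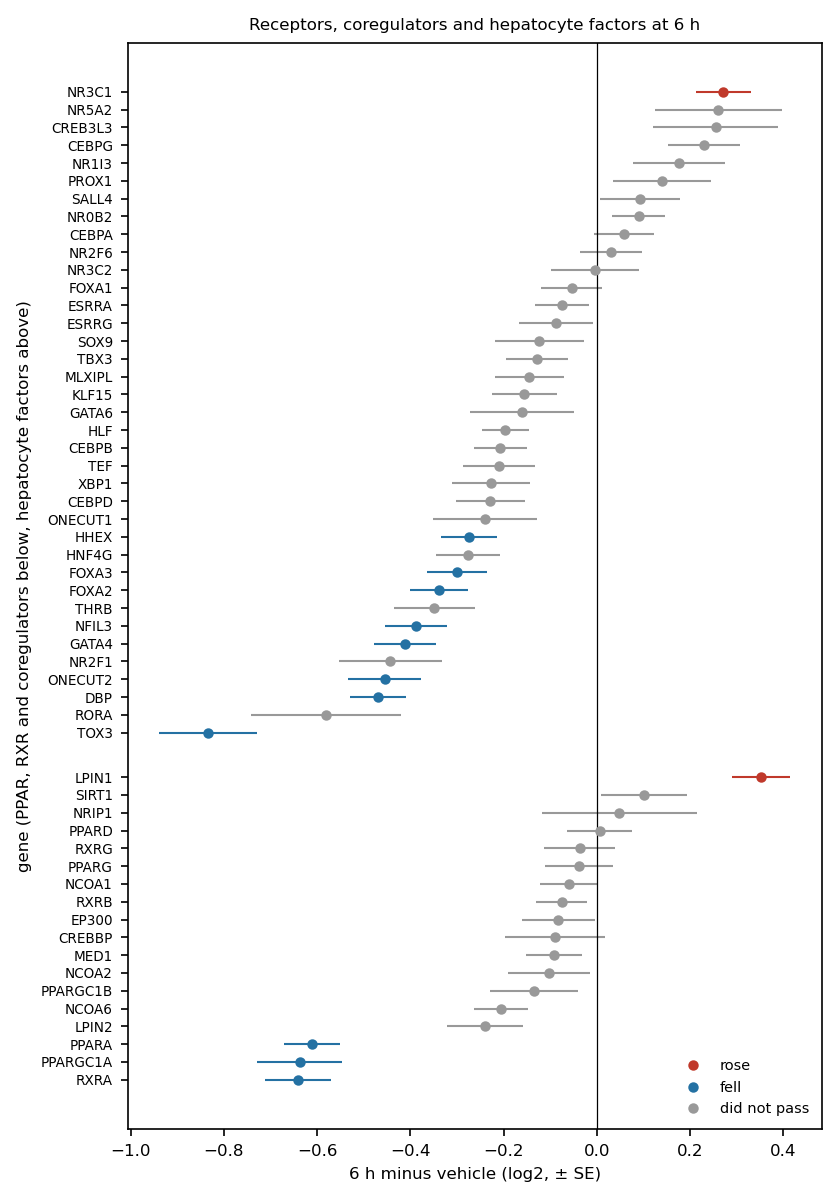
Log2 change at 6 h against vehicle, with its SE as a bar, for 18 PPAR, RXR and coregulator genes (lower block) and 37 hepatocyte transcription factors (upper block). Blue genes fell, red genes rose and grey genes did not pass. PPARA, PPARGC1A and RXRA lie together near -0.6, and TOX3 is the lowest of the hepatocyte factors at -0.83.

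Immediate early genes, which respond quickly to growth factor and stress kinases, gave more rises than falls. The shares that rose and fell were 26.8% and 4.88%, against 1.64% and 1.91% of all genes. Of the 41 measured members of the immediate early list, 11 rose (7 held) and 2 fell (1 held), and the list's median log2 change was 0.11. Only 7 rose with vehicle replicate 1 or any 1 6 h replicate left out, and 4 rose with shared probes left out and 0 fell with shared probes left out. EGR1 had signals of 8.25, 8.02 and 8.52 in vehicle, 9.34, 9.36 and 9.11 at 6 h and 8.53, 8.49 and 8.35 at 24 h. The groups were apart at 6 h and the rise was 2.01-fold (95% confidence interval 1.69 to 2.39). KLF10, a factor induced by TGFβ, rose by 1.95-fold, from 8.76, 8.56 and 8.76 to 9.69, 9.73 and 9.56. JUNB and JUN, partners in AP-1, rose by log2 changes of 0.66 ± 0.08 and 0.42 ± 0.05, and IER2 and IER3 by 0.36 ± 0.06 and 0.60 ± 0.07. ATF3, a stress-induced repressor, rose by a log2 change of 0.44 ± 0.06 on its brightest probe set and changed by 0.02 (adjusted p = 0.919) without shared probes. KLF9, a target of glucocorticoid and thyroid hormone receptors, fell by a log2 change of -0.57 ± 0.09. Its 5 probe sets changed by -0.78 to 0.25, with -0.28 for their mean (adjusted p = 0.0368).

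Feedback genes of the same kinase pathways included ERRFI1, an inhibitor of the EGF receptor, which rose by 1.57-fold (0.65 ± 0.06), and SPRY4, an inhibitor of RAS signalling, which rose by 1.48-fold (0.56 ± 0.06). LRIG1, which marks EGF receptors for breakdown, fell by a log2 change of -0.52 ± 0.07, but changed by -0.24 (adjusted p = 0.0866) with the mean of its 4 probe sets. Of the 23 measured members of the MAP kinase feedback list, 3 rose (2 held) and 2 fell (0 held), and the list's median log2 change was 0.03. Rises made up 13% and falls 8.7%, against 1.64% and 1.91% of all genes. In other fits, 1 rose with shared probes left out. Targets of YAP and TEAD gave 5 rises (4 held) and 2 falls (1 held) among 31 measured members, with a median log2 change of 0.03. As shares, 16.1% rose and 6.45% fell, against 1.64% and 1.91% of all genes. ANKRD1 had 5.18, 5.24 and 5.48 in vehicle and 6.19, 5.86 and 6.01 at 6 h, a rise of 1.65-fold (95% confidence interval 1.42 to 1.91). CCN1 and CCN2, matricellular proteins, rose by log2 changes of 0.52 ± 0.07 and 0.37 ± 0.06, and FSTL3, which binds activins, by 0.40 ± 0.06. The second probe set of CCN1 changed by 0.15 (adjusted p = 0.407). TEAD3, a DNA-binding partner of YAP, fell by a log2 change of -0.45 ± 0.07. Counts moved to 1 that fell with shared probes left out, where TEAD3 has no probe set and was not read.

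Genes of the actin cytoskeleton and targets of serum response factor gave 9 rises and 1 fall. These are 19.1% and 2.13% of the measured members, against 1.64% and 1.91% of all genes. Of the 47 measured members of the actin list, 9 rose (2 held) and 1 fell (1 held), and the list's median log2 change was 0.08; 38 of the 47 had a change above 0. With 6 h replicate 1 or 2 left out, 2 rose, and 4 rose with vehicle replicate 1 left out, 4 rose with shared probes left out and 0 fell with shared probes left out. LIMA1, the gene that fell, has no probe set without shared probes. The rises that held were TGFB1I1, a focal adhesion adaptor, from 7.56, 7.35 and 7.72 to 8.32, 8.25 and 8.18 (1.63-fold, 95% confidence interval 1.42 to 1.88), and FHL2, a cofactor of serum response factor, with a log2 change of 0.40 ± 0.07. LIMA1, which cross-links actin, fell by a log2 change of -0.42 ± 0.06.

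In the TGFβ and BMP group the largest rise was INHBE, the subunit of activin E, a hormone made mainly by hepatocytes. Its signals were 7.26, 7.08 and 7.16 in vehicle, 9.01, 8.94 and 9.12 at 6 h and 9.04, 9.14 and 8.94 at 24 h. It rose by 3.62-fold (95% confidence interval 3.24 to 4.06), and the arrays at 24 h overlapped those at 6 h. SKIL, a repressor of SMAD proteins, rose by 2.36-fold from 8.05, 7.75 and 8.28 to 9.25, 9.35 and 9.20, and ID1, a target of BMP signalling, by 0.57 ± 0.08. Of the 40 measured members of the TGFβ and BMP list, 4 rose (3 held) and 1 fell (0 held), and the list's median log2 change was 0.01 (-0.01 with median centring). That is 10% and 2.5%, against 1.64% and 1.91% of all genes. Only 2 rose with shared probes left out, and 2 fell with shared probes left out. In the Notch pathway 2 of 28 members rose, and the rise that held was LFNG, a glycosyltransferase of Notch, with a log2 change of 0.59 ± 0.08 (-0.01 on its second probe set). The 2 are 7.14% of the Notch members, against 1.64% of all genes. In other fits, 1 rose with shared probes left out. Wnt and β-catenin targets gave 0 rises (4 at an unadjusted p under 0.05) and 4 falls (LGR4, ZNRF3, AXIN2 and RNF43) among 30 members, with -0.48, -0.38, -0.27 and -0.27. None of these held, and they are 13.3% of the measured members, against 1.91% of all genes. Counts moved to 0 that fell with vehicle replicate 3 or 6 h replicate 1 or 2 left out and 1 that fell with vehicle replicate 1 or 6 h replicate 3 left out. An intensity trend and robust prior gave 8 that fell.

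The list of NF-κB, chemokine and cytokine feedback genes gave 8 rises, all of which held. These are 14.5% of its measured members, against 1.64% of all genes. CXCL8, the neutrophil chemokine interleukin-8, had signals of 5.53, 5.64 and 5.64 in vehicle, 6.98, 7.07 and 6.96 at 6 h and 5.38, 5.56 and 5.11 at 24 h, and rose by 2.64-fold (95% confidence interval 2.28 to 3.06). CCL20, which attracts lymphocytes and dendritic cells, had 10.58, 10.45 and 10.62 in vehicle and 11.40, 11.39 and 11.37 at 6 h, a rise of 1.78-fold (95% confidence interval 1.63 to 1.95). In both genes the 3 arrays at 6 h were above every vehicle array. IL18 rose by a log2 change of 0.65 ± 0.08, the cytokine signalling inhibitor SOCS2 by 0.62 ± 0.10 and the NF-κB subunit RELB by 0.47 ± 0.07. The inhibitors of the pathway TNFAIP3 and NFKBIA rose by log2 changes of 0.36 ± 0.06 and 0.35 ± 0.05. TNFAIP8 rose by a log2 change of 0.59 ± 0.07 but changed by -0.0058 without shared probes. CX3CL1, a membrane-bound chemokine, and IL1R1, the receptor of interleukin-1, fell by log2 changes of -0.55 ± 0.06 and -0.51 ± 0.06. Of the 55 measured members of the NF-κB list, 8 rose (8 held) and 2 fell (2 held), and the list's median log2 change was 0.03. With shared probes left out, 5 rose.

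Acute phase and complement genes, a group that hepatocytes make under interleukin-6, gave falls and no rise. The share that fell was 14.3%, against 1.91% of all genes. Of the 42 measured members of the acute phase list, 0 rose (0 at an unadjusted p under 0.05) and 6 fell (0 held), and the list's median log2 change was -0.11. Only 5 of the 42 had a change above 0. HP, haptoglobin, had signals of 9.84, 9.95 and 9.73 in vehicle and 9.49, 9.42 and 9.41 at 6 h, with a change of -0.40 ± 0.07 and adjusted p = 0.00969; it did not pass without 6 h replicate 2. 0 fell with 6 h replicate 2 left out, and 1 fell with 6 h replicate 1 left out, 2 fell with 6 h replicate 3 left out, 3 fell with vehicle replicate 2 or 3 left out and 1 fell with shared probes left out. More acute phase genes fell, 11, with an intensity trend and robust prior, and also 11 among genes above the median signal. Coagulation genes gave 2 rises and 3 falls among 38, of which 0 held, with a median of -0.03. As shares, 5.26% rose and 7.89% fell, against 1.64% and 1.91% of all genes. In other fits, 1 rose with shared probes left out, 0 fell with vehicle replicate 1 or any 1 6 h replicate left out, 1 fell with vehicle replicate 2 or 3 left out and 0 fell with shared probes left out. Of 46 interferon response genes 0 rose (1 at an unadjusted p under 0.05) and 2 fell, TNFSF10 and IRF2, the latter by -0.32 ± 0.06 and not without 6 h replicate 2. The share of interferon genes that passed was 4.35%, against 3.54% of all genes. Among bile acid genes KLB, the liver co-receptor for FGF19, fell by a log2 change of -0.37 ± 0.05, and 0 of 30 members rose (also 0 at an unadjusted p under 0.05).

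TNFSF10, which encodes the death ligand TRAIL, gave the largest fall. Its signals were 8.19, 8.05 and 8.18 in vehicle, 6.85, 6.78 and 6.81 at 6 h and 7.49, 7.89 and 7.71 at 24 h. It was 2.51-fold (95% confidence interval 2.19 to 2.88) lower at 6 h, adjusted p = 1.65e-05, and lower on each of its 3 probe sets. BCL6, a repressor and like TNFSF10 a gene that FOXO factors raise, had 9.57, 9.41 and 9.39 in vehicle and 8.61, 8.58 and 8.71 at 6 h, a fall of 1.77-fold (95% confidence interval 1.60 to 1.95), and 9.52, 9.55 and 9.58 at 24 h. Of the 38 measured members of the insulin and FOXO list, 3 rose (2 held) and 5 fell (3 held), and the list's median log2 change was -0.11. As shares, 7.89% rose and 13.2% fell, against 1.64% and 1.91% of all genes. TP53INP1, an autophagy and stress protein, fell by a log2 change of -0.51 ± 0.07, though with the mean of its 3 probe sets the change was -0.11 (adjusted p = 0.390). TRIB1 rose by a log2 change of 0.45 ± 0.05, with 0.24 (adjusted p = 0.115) for the mean of its probe sets. FOXO1 itself passed with a log2 change of 0.35 ± 0.07 but not without vehicle replicate 1 or 2 or any 1 6 h replicate, with the mean of its probe sets (0.15, adjusted p = 0.145), with the compared arrays alone or with the replicate block, and FOXO3 had a log2 change of -0.17 ± 0.06. Counts moved to 3 that fell with 6 h replicate 1 or 2 left out.

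PTCHD4, a patched-related protein induced by p53, had signals of 7.56, 7.75 and 7.48 in vehicle, 6.57, 6.48 and 6.54 at 6 h and 7.40, 7.39 and 7.39 at 24 h, a fall of 2.09-fold (95% confidence interval 1.88 to 2.32). PPM1D, a phosphatase that ends p53 signalling, fell by a log2 change of -0.37 ± 0.05. PMAIP1, the BH3-only protein NOXA, rose by a log2 change of 0.65 ± 0.08. Of the 35 measured members of the p53 list, 2 rose (1 held) and 4 fell (3 held), and the list's median log2 change was -0.09. Rises made up 5.71% and falls 11.4%, against 1.64% and 1.91% of all genes. With shared probes left out, 0 rose. An intensity trend and robust prior gave 7 p53 targets that fell, and the test among genes above the median signal 9. For death ligands, receptors and BCL2 proteins, of the 40 measured members of the cell death list, 4 rose (1 held) and 3 fell (1 held), and the list's median log2 change was 0.04. That is 10% and 7.5%, against 1.64% and 1.91% of all genes. Only 1 rose with 6 h replicate 1 left out, and 2 rose with shared probes left out and 1 fell with vehicle replicate 3 or any 1 6 h replicate left out.

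Stress and nutrient genes rose in a few members. DDIT4, an inhibitor of the growth kinase mTORC1, had signals of 10.25, 10.28 and 10.31 in vehicle, 11.44, 11.45 and 11.82 at 6 h and 12.06, 12.01 and 11.96 at 24 h, a rise of 2.44-fold (95% confidence interval 2.12 to 2.81). SLC7A11, the importer of cystine for glutathione, had 7.53, 7.81 and 7.75 in vehicle, 8.87, 9.03 and 9.05 at 6 h and 9.38, 9.57 and 9.59 at 24 h, a rise of 2.44-fold (95% confidence interval 2.13 to 2.79). In both genes the groups were apart and the highest arrays were those at 24 h. ASNS, asparagine synthetase, rose by 1.51-fold at 6 h (0.59 ± 0.07), and its log2 change at 24 h was 3.18. Without shared probes it had 0.04 at 6 h (adjusted p = 0.872), on a dim probe set with a mean signal of 3.48. Of the 45 measured members of the ATF4 list, 5 rose (5 held) and 1 fell (0 held), and the list's median log2 change was 0.05, and at 24 h it was 0.59. At 6 h 11.1% rose and 2.22% fell, against 1.64% and 1.91% of all genes. In other fits, 3 rose with shared probes left out. ATF4, the factor behind this response, changed by 0.15 ± 0.07 (adjusted p = 0.337). The comparisons at 6 h and 24 h share the 3 vehicle arrays.

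For NRF2 targets, of the 34 measured members of the NRF2 list, 3 rose (1 held) and 1 fell (0 held), and the list's median log2 change was 0.00. That is 8.82% and 2.94%, against 1.64% and 1.91% of all genes. Counts moved to 1 that rose with vehicle replicate 1 or 3 or any 1 6 h replicate left out and 2 that fell with shared probes left out. SLC7A11 was the rise that held, and NFE2L2, which encodes NRF2, had a log2 change of -0.03 ± 0.06. For the hypoxia list, of the 48 measured members of the hypoxia list, 4 rose (4 held) and 2 fell (0 held), and the list's median log2 change was -0.01 (0.01 with quantile normalization). Its shares were 8.33% and 4.17%, against the same 1.64% and 1.91%. With shared probes left out, 0 rose and 1 fell. Of the rises only SLC2A1 was read there, since DDIT4, SLC2A3 and BHLHE40 have no such probe set. SLC2A3 and SLC2A1, glucose transporters, rose by log2 changes of 0.83 ± 0.06 and 0.36 ± 0.06, and BHLHE40, a repressor of the clock, by 0.69 ± 0.07. Without shared probes SLC2A1 had 0.26 (adjusted p = 0.327). HIF1A changed by 0.20 ± 0.06 (adjusted p = 0.0861), and passed with an intensity trend and robust prior and among genes above the median signal. PFKP, a phosphofructokinase, rose by a log2 change of 0.40 ± 0.07, while its second probe set changed by 0.05 (adjusted p = 0.866). Of 35 endoplasmic reticulum chaperone genes 0 rose and 1 fell (0 higher and 5 lower at an unadjusted p under 0.05), and of 35 cytosolic heat shock genes 0 passed (3 higher and 1 lower). The share of chaperone genes that passed was 2.86%, against 3.54% of all genes. The chaperone call was lost in 8 of the 9 fits that left out 1 array, all but the one without 24 h replicate 2, and without shared probes.

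Among the remaining genes of the ranking, GPCPD1, which cleaves glycerophosphocholine, rose by 2.80-fold (95% confidence interval 2.43 to 3.22). Its signals were 7.39, 7.60 and 7.64 in vehicle, 9.12, 9.07 and 8.89 at 6 h and 7.69, 7.70 and 7.92 at 24 h. CHKA, choline kinase at the start of phosphatidylcholine synthesis, fell from 11.05, 11.15 and 11.07 to 10.48, 10.44 and 10.49, or 1.54-fold (95% confidence interval 1.42 to 1.67), and had 11.07, 11.12 and 11.10 at 24 h. TCIM rose by 2.54-fold, MAB21L3 by 2.08-fold and ARRDC3, an arrestin-like adaptor of receptor breakdown, by 2.03-fold. TTPA, the transfer protein for vitamin E, fell by a log2 change of -0.63 ± 0.09, GRB7, an adaptor of receptor tyrosine kinases, by -0.74 ± 0.09 and PPP1R16A, a targeting subunit of protein phosphatase 1, by -1.02 ± 0.07. C9orf152, KLHL14, PLCXD1, SMLR1, JADE2 and ANKRD10 fell by log2 changes between -1.03 and -0.62. The second probe set also passed as lower for PLCXD1, SMLR1 and ANKRD10, and C9orf152 has 1 probe set. It did not pass for KLHL14 (-0.27, adjusted p = 0.291) and JADE2 (-0.11, adjusted p = 0.439), which passed with the mean of their probe sets. FRY, RBM47 and SLC22A23 fell by log2 changes of -0.77 ± 0.09, -0.71 ± 0.08 and -0.67 ± 0.06, but did not pass without shared probes. TRIM4, with a log2 change of -0.63 ± 0.07, passed neither with the mean of its probe sets (-0.16, adjusted p = 0.160) nor without shared probes (0.10, adjusted p = 0.529).

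**Figure D4:**
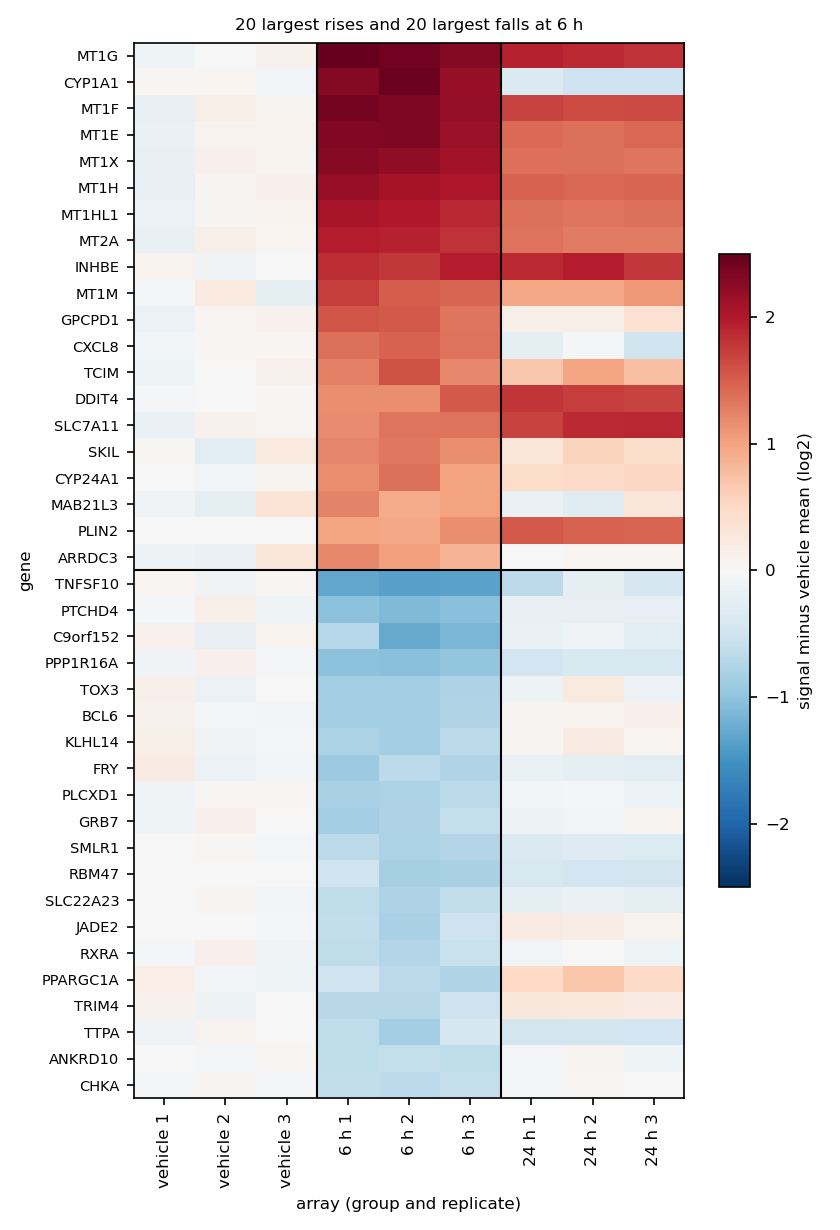
Signal of each array minus the mean of the 3 vehicle arrays (log2, red higher and blue lower) for the 20 genes with the largest rises (top) and the 20 with the largest falls (bottom) whose calls held. Columns are the 9 arrays by group and replicate. At 24 h BCL6 and CHKA are close to vehicle (log2 changes of 0.09 and 0.00), PPARGC1A is above it (log2 change 0.56), and DDIT4, SLC7A11 and PLIN2 are higher than at 6 h.

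Several groups had no member that passed. Of 48 respiratory chain, 64 ribosomal protein, 57 histone and 34 proteasome genes measured, 0 passed, with median log2 changes of -0.04, -0.01, 0.05 and 0.01 (-0.01 with median centring). At an unadjusted p under 0.05 they held 0, 0, 3 and 1. In the cell cycle, 1 of 53 G1 to S phase genes rose (1.89%, against 1.64% of all genes). The call was lost in 7 of the 9 fits that left out 1 array (all but those without 24 h replicate 1 or 2), with the replicate block and with median centring. In turn 3 of 53 G2 to M phase genes fell, among them the kinase NEK2 with a log2 change of -0.37 ± 0.06 and the phosphatase CDC25B with a log2 change of -0.34 ± 0.05, both of which held, and 1 fell without shared probes. The 3 are 5.66% of those measured, against 1.91% of all genes. Of the 55 measured members of the amino acid catabolism list, 0 rose (5 at an unadjusted p under 0.05) and 2 fell (1 held), and the list's median log2 change was -0.03. The share that passed was 3.64%, close to the 3.54% of all genes. ARG2, mitochondrial arginase, fell by a log2 change of -0.51 ± 0.07, or -0.22 (adjusted p = 0.137) without shared probes. Of 466 numbered zinc finger genes 5 rose and 7 fell, which is 1.07% and 1.5%, below the 1.64% and 1.91% of all genes. The 2 falls that held were ZNF512B and ZNF439 with log2 changes of -0.57 ± 0.09 and -0.49 ± 0.07. Of the 5 rises 0 held: 0 passed with 6 h replicate 1 left out, and 3 passed when vehicle replicate 1 or 6 h replicate 2 was. The falls numbered 3 when 6 h replicate 2 or 3 was left out, and 4 for vehicle replicate 1 or 3 or 6 h replicate 1. Of 342 solute carriers 11 rose and 17 fell, which is 3.22% and 4.97%, against 1.64% and 1.91% of all genes. SLC1A2, a glutamate transporter, had the lowest value of these, -0.97 ± 0.19, a call that was lost with vehicle replicate 1 or 3 or 6 h replicate 1 left out. The second probe set of SLC1A2 changed by -0.02 (adjusted p = 0.937). Only 6 rose with 6 h replicate 1 left out, and 6 rose with shared probes left out, 6 fell with 6 h replicate 2 left out, 7 fell with vehicle replicate 1 or 6 h replicate 1 left out, 9 fell with 6 h replicate 3 left out, 10 fell with vehicle replicate 3 left out and 11 fell with vehicle replicate 2 or 24 h replicate 3 left out. The circadian list gave 1 rise, BHLHE40, and 2 falls, DBP and NFIL3, among 24 members, the list of growth factors and liver hormones 1 rise, INHBE, and 2 falls among 39, and EGF ligands and receptors 1 rise and 2 falls among 17. The 3 rises held, and so did 1 of the circadian falls, DBP, and 1 of the EGF falls, but neither fall of the growth factor list: 0 passed when vehicle replicate 3 or 6 h replicate 2 or 3 was left out, or with the 6 compared arrays alone. BHLHE40 has no probe set without shared probes. The medians of these 3 lists were -0.05, -0.07 and 0.07. Their shares that rose were 4.17%, 2.56% and 5.88%, against 1.64% of all genes. Those that fell were 8.33%, 5.13% and 11.8%, against 1.91%.

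**Figure D5:**
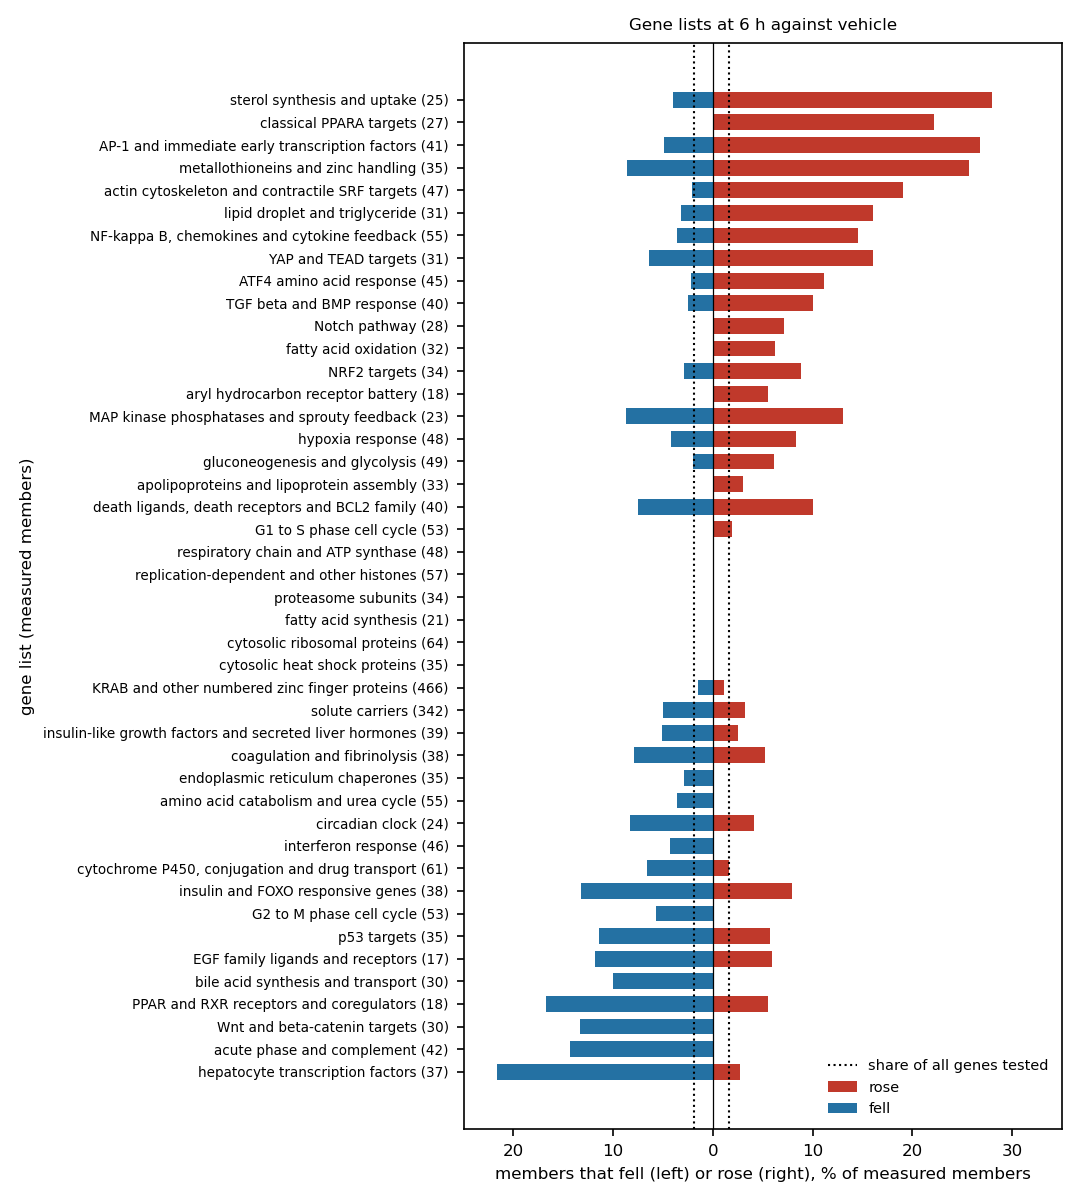
For each of the 44 gene lists, the share of measured members that rose (red, right) and fell (blue, left), in percent, with the number measured in brackets. Dotted lines mark the shares over all genes tested, 1.64% that rose and 1.91% that fell. The lists were chosen with earlier results of these data known, and no share was tested. Sterol synthesis, immediate early and metallothionein lists have the largest shares that rose, and hepatocyte transcription factors the largest share that fell.

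A second probe set was present for 205 of the genes that rose and 266 of those that fell. It had the same sign in 185 (90.2%) and 230 (86.5%), and passed in the same direction in 43 and 55. Among 10052 genes that did not pass and had a second probe set, the sign was shared in 62.0%.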

How the data were processed

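The measurements are log2 probe set signals of 9 expression arrays, 1 column per array, used as the authors deposited them. RMA made these values, per the submitters' processing notes, which give no version. The method corrects background, gives every array the same distribution of values and merges the probes of a set into 1 value. Signals ran from 2.66 to 15.0 and array medians from 5.61 to 5.68. Arrays have no read depth, and their number limits the precision.

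Of 54675 probe sets, 41091 had 1 gene symbol by the platform annotation and were no controls, and each of 19775 genes was read through the probe set with the highest mean. The rest were not used. Group means over all 9 arrays were fitted with limma 3.58.1 (lmFit and eBayes) in R 4.3.3, files being read with the package data.table (1.17.8), with no replicate block and no filter on signal, and tested two-sided with Benjamini-Hochberg adjustment. With 3 arrays in each group, the smallest p of an exact permutation test is 0.1. The fit was tested on simulated data.

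Named genes were the 20 largest rises and 20 largest falls whose arrays did not overlap and whose calls held, up to 6 passing members of each of 44 lists, and anchor genes of these pathways whatever their test, some of which are not reported here. JUN, IER2, RELB, TNFAIP3, NFKBIA, IL1R1 and SLC39A14 are list members that passed outside these rules and were named after their values were seen. The members and lists were chosen with earlier results of these data known. Of 2546 list members, 2400 were measured. Promoters came from RefSeq (GRCh38.p14), and both strands were searched. Alternatives were the replicate block, the 6 compared arrays alone, a robust prior with an intensity trend, only the brighter genes, probe sets averaged within a gene, no shared probes, quantile normalization, median centring, stricter thresholds and each array left out.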

Additional observations from a re-analysis of the deposited data

Results flagged for a closer look

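The change against vehicle differed between 6 h and 24 h for 38 of the 40 genes with the largest changes at 6 h, by the test of 24 h against 6 h in the same limma fit (adjusted p under 0.05). INHBE and TTPA were the exceptions. Over all genes 13.8% passed this test. The 40 genes were chosen by their change at 6 h against vehicle, and the same 6 h arrays enter the difference, so that a return toward vehicle is favoured by the choice and the count is a description. Differences are 24 h minus 6 h on the log2 scale. Among genes that rose, the difference was -0.55 for MT1G, -0.65 for MT1F, -0.86 for MT1E, -0.83 for MT1X, -0.64 for MT1H, -0.63 for MT1HL1, -0.57 for MT2A and -0.57 for MT1M. It was -2.78 for CYP1A1, -1.65 for CXCL8, -1.26 for GPCPD1, -1.11 for MAB21L3 and -0.99 for ARRDC3, which were near or below vehicle by 24 h. It was -0.80 for SKIL, -0.70 for CYP24A1 and -0.54 for TCIM. In the other direction it was 0.44 for DDIT4, 0.53 for SLC7A11 and 0.45 for PLIN2, which were higher at 24 h than at 6 h.

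Among genes that fell, each of the 19 differences was above 0, the sign that choosing the lowest values at 6 h favours. It was 0.88 for TNFSF10, 0.86 for PTCHD4, 0.92 for BCL6, 0.82 for TOX3, 0.88 for KLHL14, 0.86 for C9orf152, 0.81 for JADE2 and 0.88 for TRIM4. It was 0.67 for PLCXD1, 0.70 for GRB7, 0.59 for PPP1R16A, 0.56 for FRY, 0.60 for ANKRD10, 0.62 for CHKA, 0.46 for SLC22A23, 0.39 for SMLR1 and 0.27 for RBM47. For the receptor genes it was 0.58 for RXRA, 0.55 for PPARA and 1.19 for PPARGC1A. Among the other genes named for their part in PPARα, metal, sterol or stress responses, it was 0.55 for CPT1A, 0.37 for FABP1, 0.25 for SREBF1, 0.28 for SREBF2 and 0.73 for ATF4, and -0.32 for AHR, -0.20 for MTF1, -0.53 for SLC30A1 and -0.24 for HIF1A. No explanation for these differences was tested.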

How the results depend on the processing

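Of the genes that passed, rose and fell (701, 324 and 377), the counts were 427, 208 and 219 with the replicate block, 454, 227 and 227 with the 6 compared arrays alone, and 454, 210 and 244 without shared probes. They were 1104, 472 and 632 with an intensity trend and robust prior, and 1206, 500 and 706 among genes above the median signal. An adjusted p under 0.01 gave 234, 122 and 112, and a 1.5-fold minimum 78, 53 and 25. Fits without 1 array gave from 261 to 637 genes that passed, 127 to 298 that rose and 111 to 339 that fell. The mean of all probe sets (584, 271 and 313), quantile normalization (747, 419 and 328) and median centring (671, 255 and 416) stayed within 1.5 times. With the block, 415 of its 427 genes were among the 701, and no gene called in both changed sign in any of these fits. Counts of rises or falls in the gene lists also grew in some fits. With an intensity trend and robust prior, 28 list counts exceeded 1.5 times their main value. Among genes above the median signal, 29 did. Most of these gains are not given list by list.

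Without shared probes the sign turned for TRIM4 (0.10), IDI1 (-0.038), TNFAIP8 (-0.0058) and FGA (0.11). Of the 177 genes named by rule, the call changed for 33 with the replicate block, 32 with the compared arrays alone and 31 with the mean of all probe sets. The cause was not tested. Replicate numbers did not pair the arrays: deviations of equally numbered arrays correlated between -0.20 and 0.09. Precision is limited by 3 arrays a group, and dim genes seldom passed.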

Other observations

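The genes below lie outside the rules for named genes and were chosen after their values were seen. Their calls held in every fit that left out 1 array. Several encode secreted or surface proteins. EDN1, the vasoconstrictor peptide endothelin-1, had signals of 7.09, 7.05 and 7.11 in vehicle and 8.08, 8.07 and 7.53 at 6 h, a rise of 1.75-fold (95% confidence interval 1.46 to 2.11), with 7.21, 7.10 and 7.14 at 24 h. HCAR3, a receptor for hydroxylated fatty acids, had 7.65, 7.72 and 7.56 in vehicle, 8.58, 8.50 and 8.68 at 6 h and 8.39, 8.38 and 8.34 at 24 h, a rise of 1.92-fold (95% confidence interval 1.74 to 2.12). In both genes the arrays at 6 h were above every vehicle array. THBS1, the matrix protein thrombospondin-1, rose by a log2 change of 0.56 ± 0.07, SDC4, a cell surface proteoglycan, by 0.53 ± 0.06 and the interleukin-4 receptor chain IL4R by 0.50 ± 0.06.

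SGK1, a kinase of ion transport that glucocorticoids and cell stress induce, rose from 10.20, 10.14 and 10.12 to 10.97, 10.97 and 10.81 (1.70-fold). AKAP12, an anchor of protein kinase A, rose by a log2 change of 0.60 ± 0.05. STAT3, the factor that carries interleukin-6 signals to acute phase genes, had 10.84, 10.80 and 10.84 in vehicle and 10.39, 10.40 and 10.37 at 6 h, a log2 change of -0.44 ± 0.06, and 10.82, 10.91 and 10.68 at 24 h. DIO1, the deiodinase that activates thyroid hormone, changed by -0.44 ± 0.07, and the adhesion receptor CEACAM1 by -0.36 ± 0.06. COQ8A and COQ10A, which act in the handling of coenzyme Q, changed by -0.43 ± 0.06 and -0.52 ± 0.06. All 5 were lower at 6 h than in each vehicle array.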
